A study of Drosophila melanogaster with 14 samples.

Results

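*CrebA* is annotated with 2 transcripts that differ only at the 3′ end, and both were taken by their transcript identifiers, FBtr0075557 (*CrebA*-RA, the short form) and FBtr0075558 (*CrebA*-RB, the long form). They are 2 of the 30438 transcripts quantified in the series and the only ones of this gene. The 14 libraries came from LNvs, the ventral lateral clock neurons of the fly brain that release the neuropeptide PDF. These cells were marked with Pdf>mGFP in female flies of a w1118 background, raised at 25°C under the condition label HC25, and were sorted by FACS. Amplification of the RNA used T7 RNA polymerase, and the reads were single-end with 50 bases. Wild type gave 6 libraries, 1 each for ZT24, ZT2, ZT4, ZT12, ZT14 and ZT16, and the methods of the study place the library labelled ZT24 at ZT0. *Atx2* was knocked down in the LNvs themselves with the RNAi line KK108843, in 2 libraries at ZT0 and 2 at ZT12. The *tyf* mutant, tyf(e), gave 2 libraries at ZT4 and 2 at ZT16. Following the comparisons of the study, *Atx2* RNAi at ZT0 was set against wild type at ZT24 and ZT2, *Atx2* RNAi at ZT12 against ZT12 and ZT14, *tyf* at ZT4 against ZT2 and ZT4, and *tyf* at ZT16 against ZT14 and ZT16. Wild type at ZT2 and ZT14 thus serves both genotypes, and the SD of a wild-type group includes the change between its 2 times.

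CrebA is a basic leucine zipper transcription factor of the CREB3 family. In the salivary gland and other secretory tissues of the fly it is known as an activator of genes for protein entry into the endoplasmic reticulum and for vesicle transport. Atx2 is an RNA-binding protein with roles in translation and mRNA stability, and TYF is a partner with which it promotes translation of *per* in clock neurons. Transcripts that end at different poly(A) sites of the same last exon encode the same protein but carry a different 3′UTR, the part of an mRNA behind the stop codon, to which many RNA-binding proteins and miRNAs bind. The questions here were how much of *CrebA* was long, whether that share moved with time or genotype, and whether the difference under *Atx2* RNAi fell on one form.

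The gene (FBgn0004396) lies on the plus strand of chromosome 3L from 15535395 to 15553214 in the BDGP6.54 annotation. Both forms have 6 exons, with the same boundaries apart from the end of the last exon, which starts at 15551080. The coding sequence of 1548 bases (516 codons) and the 5′UTR of 1007 bases are the same in both. The 3′UTR begins at 15551275 and ends at 15551905 in the short form, where it measures 631 bases, and at 15553214 in the long form, where it measures 1940 bases. The stretch from 15551906 to 15553214, 1309 bases, is exonic 3′UTR of the long form and lies beyond the end of the short form. No transcript of another annotated gene overlaps the locus.

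**Figure D1:**
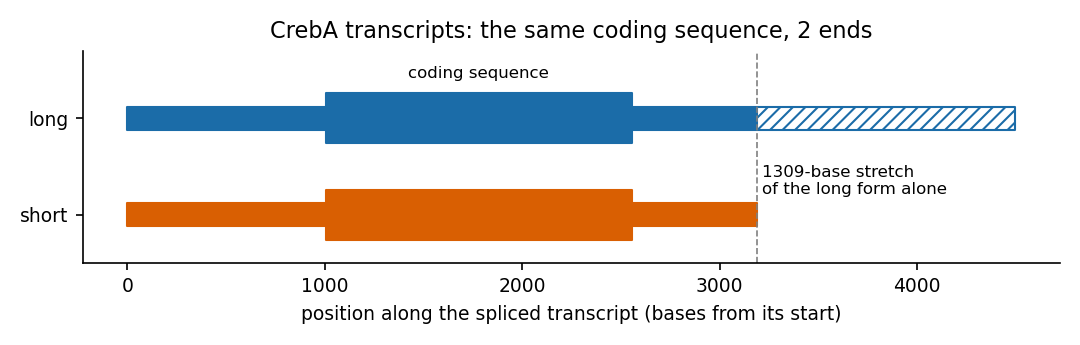
The 2 *CrebA* transcripts drawn along the spliced mRNA (x axis, bases from the transcript start). Thin bars are UTRs, thick bars the shared coding sequence, and the hatched bar is the stretch of 1309 bases that the long form alone holds.

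The short form is contained in the long form from end to end and has no base of its own, which sets how the values are to be read. A read in the shared stretch fits both forms and a read in the last 1309 bases fits only the long form, so the split given by kallisto, the program that assigned the reads, rests on the reads in those bases. They make up 29.4% of the effective length of the long form, a length that is 49 bases shorter than the transcript itself. With even coverage, the share of the long form in TPM (a relative level that takes transcript length into account) is the coverage of the last stretch divided by that of the shared stretch, and it cannot exceed 100%. Uneven coverage along the mRNA would also be read as a change between the forms, and its part in the differences given here was not tested.

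*Atx2* RNAi at ZT0 had 2529 and 2032 estimated counts on the long form and 78.3 and 745 on the short form. *Atx2* RNAi at ZT12 had 1727 and 1954 on the long form and 449 and 444 on the short form. The long form had more counts than the short form in each of these 4 libraries, and the short form was close between replicates at ZT12 but not at ZT0. *tyf* had 1754 and 3446 on the long form at ZT4 and 1207 and 1516 at ZT16. The short form in *tyf* had 913 and 1107 at ZT4 and 641 and 299 at ZT16. All 4 *tyf* libraries thus held at least 299 counts of the short form. In wild type, the long form had 2743 at ZT24, 4045 at ZT2, 8215 at ZT4, 1934 at ZT12, 1645 at ZT14 and 2113 at ZT16. The short form in wild type had 1281 at ZT24, 269 at ZT2, 286 at ZT4, 771 at ZT12, 9.11 at ZT14 and 0.50 at ZT16. The sum of both forms ran from 1654 to 8501 counts, so *CrebA* itself was well covered in every library, and the short form of wild type at ZT16 was below the 3 counts taken here as the smallest detectable number.

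To compare libraries, counts were scaled by library size after TMM normalization over the 14 libraries and are given as normalized CPM. The long form was highest in wild type at ZT2, with 482 normalized CPM, followed by ZT24 with 390 and ZT4 with 354. Next came *Atx2* RNAi at ZT12 with 288 ± 6.78 (SD, n = 2) and *tyf* at ZT4 with 248 ± 122 (SD, n = 2). The *tyf* replicates of 162 and 334 span every group between wild type at ZT4 and at ZT12, so *tyf* at ZT4 does not differ from these neighbours beyond its spread. Wild type at ZT14 had 205, *Atx2* RNAi at ZT0 204 ± 67.6 (SD, n = 2) and wild type at ZT12 183, 3 values that lie within the spread of the RNAi replicates. The lowest were wild type at ZT16 with 117 and *tyf* at ZT16 with 113 ± 20.1 (SD, n = 2), which also do not differ beyond the spread. Wild type had 1 library for each time and thus no spread of its own.

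The short form followed another order. It was highest in wild type at ZT24, with 182 normalized CPM, then in *tyf* at ZT4 with 96.0 ± 16.2 (SD, n = 2), in wild type at ZT12 with 73.1 and in *Atx2* RNAi at ZT12 with 70.3 ± 8.33 (SD, n = 2). *tyf* at ZT16 had 38.8 ± 19.3 (SD, n = 2), and *Atx2* RNAi at ZT0 had a mean of 32.5 from replicates of 7.77 and 57.3, close to wild type at ZT2 with 32.1. Wild type at ZT4, ZT14 and ZT16 came last, with 12.3, 1.12 and 0.056. Pearson r between the log2 levels of the forms was 0.317 over the 14 libraries, given as a description, since both forms share the reads of a library.

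**Figure D2:**
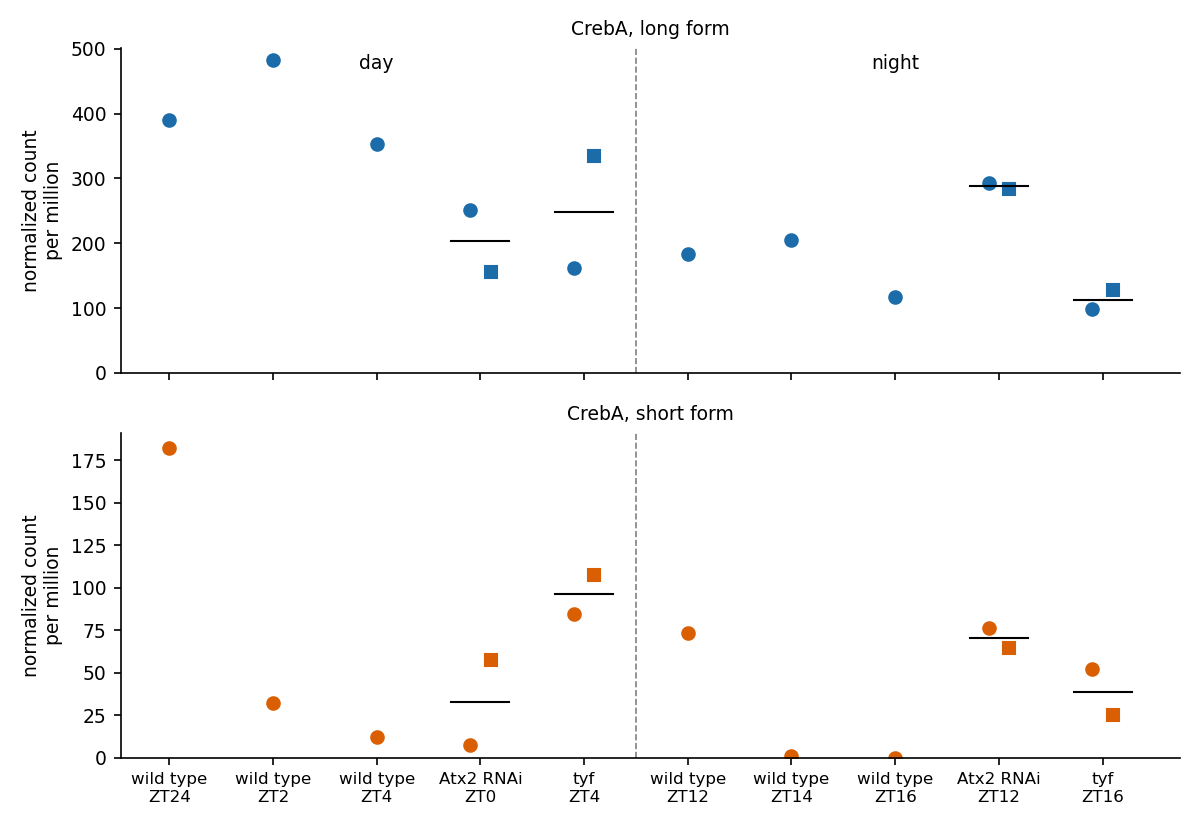
Normalized CPM (y axes, from 0) of the long form (top) and the short form (bottom) in each of the 14 libraries by genotype and time, with day left and night right of the dashed line. Circles and squares are replicates 1 and 2 (wild type has 1 library for each time), and black lines are means of 2. In wild type the long form lies at 354 to 482 by day and 117 to 205 by night, and the short form is highest at ZT24 and ZT12.

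The long form was the major form in every library. Its share of *CrebA* TPM ran from 57.0% to 99.97%, with a median of 74.4%. *Atx2* RNAi had 95.8% and 65.8% at ZT0 and 73.1% and 75.7% at ZT12. *tyf* had 57.5% and 68.7% at ZT4 and 57.0% and 78.1% at ZT16. The *tyf* shares thus all lay below 80%, while those of *Atx2* RNAi at ZT0 spanned most of the range. In wild type, the shares were 60.2% at ZT24, 91.4% at ZT2, 95.3% at ZT4, 63.9% at ZT12, 99.2% at ZT14 and 99.97% at ZT16. The libraries of ZT24 and ZT12, the starts of day and night, stood apart from the other 4 of wild type, and with 1 library for each time, time and library cannot be told apart. By exact Clopper-Pearson intervals at 95% on the inferred number of reads in the last stretch, which cover counting error only, the share at ZT24 lay between 55.6% and 65.0% and that at ZT2 between 85.4% and 97.7%.

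**Figure D3:**
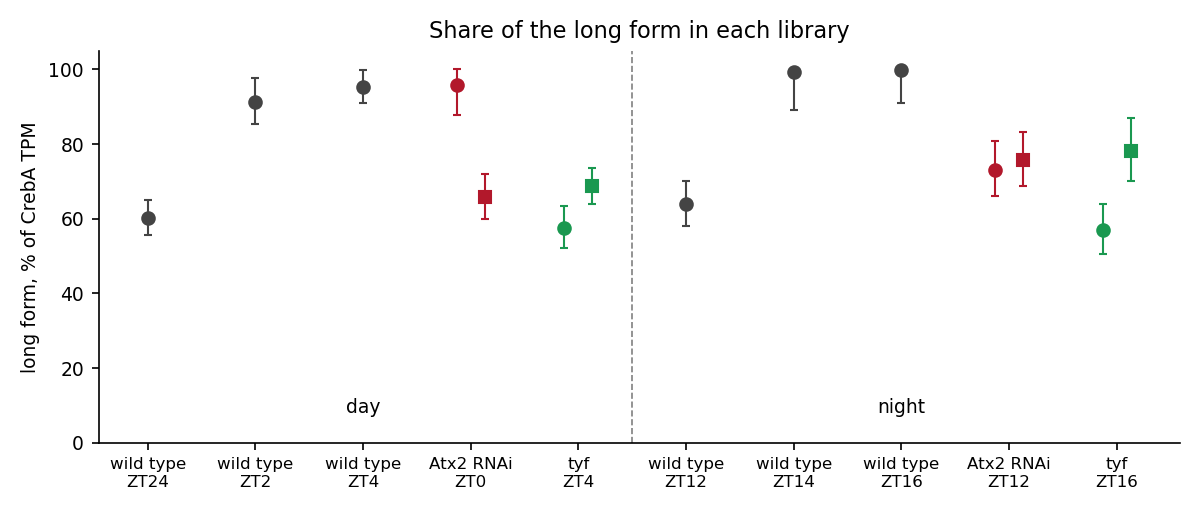
Long form as a percentage of *CrebA* TPM (y axis) in each library by genotype and time, with 95% exact intervals for counting error only. Circles and squares are replicates 1 and 2, wild type is grey, *Atx2* RNAi red and *tyf* green. The replicates of *Atx2* RNAi at ZT0 lie 30.0 percentage points apart, and wild type at ZT24 and ZT12 lies within the range of *tyf*.

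Replicates of one genotype and time could lie far apart in this share. At ZT0, the *Atx2* RNAi replicates had 2607 and 2777 *CrebA* counts in all, yet their shares were 30.0 percentage points apart. The replicates differed by 2.60 points in *Atx2* RNAi at ZT12, by 11.2 in *tyf* at ZT4 and by 21.1 in *tyf* at ZT16. With even coverage, the counts of the ZT0 replicates correspond to 744 and 598 reads in the last 1309 bases, a ratio of 1.24, and to 1863 and 2179 reads in the shared stretch. The opposite order there holds for counts that are not scaled by library size. In normalized CPM, replicate 1 was higher in both, with 74.1 against 46.0 in the last stretch and 186 against 168 in the shared stretch. The short-form count, which is what the long form leaves over, differed 9.51-fold. In normalized CPM, these replicates differed 1.61-fold in the long form, 1.22-fold in the sum and 7.38-fold in the short form.

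The share did not differ between day and night beyond this spread. Day minus night, averaged over the 3 genotypes, was -1.14 percentage points (p = 0.87, exact permutation test over 720 arrangements within genotype, two-sided, n = 7 each), and single libraries set its sign, as it ran from -6.13 to 3.86 points when each was left out. In wild type, the mean share was 82.3% ± 19.2 by day and 87.7% ± 20.6 by night (SD, n = 3 each). The level did differ by time. The long form in wild type had a mean 2.42-fold higher by day, with no overlap between the 3 libraries of day and the 3 of night. It made up 82.6% of the difference in the sum of both forms, and 409 of the 484 normalized CPM of the sum by day and 169 of 193 by night. The short form had 12.3 to 182 by day and 0.056 to 73.1 by night, and these overlapped.

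In the fit of the *Atx2* experiment, the long form was at 1.18 on the log2 scale for wild type by day against night (standard error 0.26, adjusted p = 0.35 from edgeR), and in that of the *tyf* experiment 1.39 (standard error 0.43, adjusted p = 0.59 from edgeR). Neither passed the threshold of an adjusted p under 0.05 over all transcripts, which 0.106% and 0.0852% of transcripts passed in these contrasts. The short form had 1.52 (standard error 1.75, adjusted p = 1 from edgeR) and 5.45 (standard error 1.20, adjusted p = 0.29 from edgeR), the latter against the 9.11 and 0.50 counts of ZT14 and ZT16. The sum of both forms, tested among genes, passed in both, with 1.27 (standard error 0.21, adjusted p = 0.0088 from edgeR) where 1.62% of genes were called and 1.47 (standard error 0.33, adjusted p = 0.031 from edgeR) where 2.36% were. Without wild type at ZT14, the first had an adjusted p of 0.10, and the second had 0.17 without wild type at ZT2 and 0.34 without ZT16 (all from edgeR). DESeq2 called the long form in the *Atx2* experiment (1.20, adjusted p = 0.0018) and the short form in the *tyf* experiment (5.40, adjusted p = 5.6e-05), and it called more transcripts in all, 433 against 16 for edgeR in the first.

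At ZT0, *CrebA* was lower in *Atx2* RNAi in the long form and in the inferred coverage of the shared stretch, and the short form could not be resolved. The long form had 252 and 156 normalized CPM in *Atx2* RNAi and 390 and 482 in wild type at ZT24 and ZT2. These did not overlap, and the RNAi mean was 2.14-fold lower. In TPM, the RNAi mean was 2.84-fold lower, also without overlap. The short form had 7.77 and 57.3 in *Atx2* RNAi against 182 and 32.1, which overlapped. Of the difference in the sum of both forms, 75.7% lay in the long form and 24.3% in the short form. The long form already made up 436 of the 543 normalized CPM of the sum in wild type, so the percentage does not set it apart. By stretch, the inferred coverage of the last 1309 bases, which is proportional to the long form, was 2.14-fold lower and that of the shared stretch 2.35-fold lower, both without overlap. The share of the long form was 80.8% ± 21.2 in *Atx2* RNAi against 75.8% ± 22.1 (SD, n = 2 each). The difference of 5.04 points is smaller than either SD.

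The fitted log2 fold change at ZT0 was -1.13 for the long form (standard error 0.26, unadjusted p = 0.0051, adjusted p = 0.20 from edgeR) and -1.74 for the short form (standard error 1.76, adjusted p = 0.78 from edgeR). Neither form passed, in a contrast in which edgeR called 0.212% of 15123 transcripts. DESeq2 called the long form at -1.14 (adjusted p = 0.0022), with 1138 transcripts called in all against 32 for edgeR. The sum of both forms had a log2 fold change of -1.25 (adjusted p = 0.0054 from edgeR, standard error 0.21), where 7.32% of genes were called. Without *Atx2* RNAi replicate 2, the adjusted p of the sum was 0.067. The long minus short difference was 0.62 on the log2 scale, and the diffSpliceDGE test of edgeR, which sets each transcript against the rest of its gene, gave an unadjusted p of 0.71 for the short form and 0.93 for the long form (adjusted p = 1 for both). Leaving out 1 library at a time, the change of the long form ran from -1.51 to -0.82 and that of the short form from -3.81 to 0.002, the latter without wild type at ZT24.

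At ZT12, the order of the groups was the opposite. The long form had 293 and 283 normalized CPM in *Atx2* RNAi and 183 and 205 in wild type at ZT12 and ZT14, again without overlap, with the RNAi mean 1.48-fold higher. The short form had 76.2 and 64.4 against 73.1 and 1.12, which overlapped. The log2 fold change was 0.61 for the long form (standard error 0.26, adjusted p = 0.39 from edgeR) and 0.95 for the short form (standard error 1.73, adjusted p = 0.89 from edgeR), and neither passed, where 0.139% of transcripts were called. The sum was at 0.69 (standard error 0.21, adjusted p = 0.071 from edgeR). Of the difference in the sum, 73.9% lay in the long form, which made up 194 of the 231 normalized CPM of the sum in wild type. The coverage of the shared stretch was 1.57-fold higher. The share of the long form was 74.4% ± 1.84 against 81.6% ± 25.0 (SD, n = 2 each), within the spread of wild type.

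Over both times, the share differed between *Atx2* RNAi and wild type by -1.08 percentage points (p = 1, exact permutation test over 36 arrangements within day and night, two-sided, n = 4 each, smallest possible p = 0.056). With each library left out, this ran from -9.91 points without wild type at ZT12 to 7.75 without wild type at ZT14. Within *Atx2* RNAi, both libraries of ZT0 had less of each form than both of ZT12. The log2 fold change of ZT0 against ZT12 was -0.56 for the long form (standard error 0.26, adjusted p = 0.62 from edgeR) and -1.17 for the short form (standard error 1.74, adjusted p = 0.99 from edgeR), where 0.0132% of transcripts were called.

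The interaction, the RNAi effect at ZT0 minus that at ZT12, was -1.74 for the long form (standard error 0.37, unadjusted p = 0.0033, adjusted p = 0.39 from edgeR) and -2.69 for the short form (standard error 2.47, adjusted p = 0.89 from edgeR). In this contrast edgeR called 0 of 15123 transcripts (0%), with 1049 at an unadjusted p under 0.05, and DESeq2 called 371, the long form of *CrebA* among them (-1.77, adjusted p = 0.0014). For the sum of both forms the interaction was -1.94 (standard error 0.29, adjusted p = 0.019 from edgeR), where 0.74% of genes were called. It had an adjusted p between 0.014 and 0.11 with each library left out and lost the call without *Atx2* RNAi ZT0 replicate 2, either replicate of ZT12 or wild type at ZT14.

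**Figure D4:**
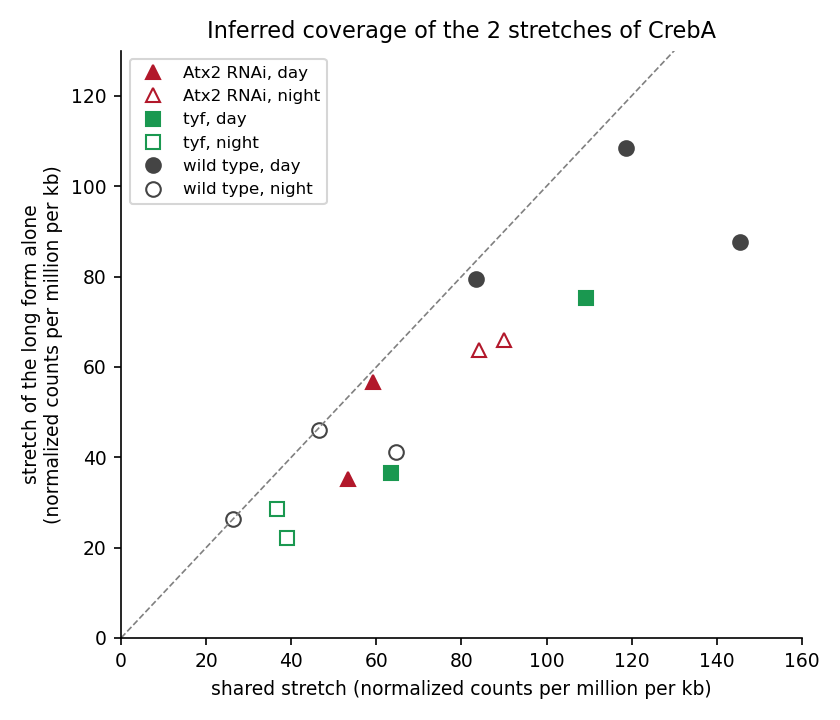
Inferred coverage of the shared stretch (x axis) and of the stretch of the long form alone (y axis), in normalized CPM per kb, for the 14 libraries. Circles are wild type, triangles *Atx2* RNAi and squares *tyf*, filled by day and open by night, and on the dashed line the long-form share is 100%. The *Atx2* RNAi libraries of ZT0 (35.1 and 56.6 on the y axis) lie below the wild-type libraries of ZT24 and ZT2 (87.6 and 108) on both axes.

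In the *tyf* mutant, the short form was higher than in the wild-type libraries set against it, while the sum of both forms overlapped with theirs. At ZT4, the long form had 162 and 334 normalized CPM against 482 and 354 in wild type at ZT2 and ZT4, and the short form had 84.6 and 107 against 32.1 and 12.3. Both forms were thus without overlap at ZT4, the long form lower and the short form higher in *tyf*. At ZT16, the long form had 98.8 and 127 against 205 and 117 in wild type at ZT14 and ZT16, and the short form had 52.4 and 25.1 against 1.12 and 0.056. Here the long form overlapped and the short form did not. In TPM, the scale of the share, the long form did not overlap at ZT16 either, with 31.5 and 40.8 in *tyf* against 96.2 and 50.2 in wild type. The mean sum was 344 in *tyf* against 440 in wild type at ZT4 and 152 against 162 at ZT16, with overlap at both times.

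The share of the long form was 63.1% ± 7.91 in *tyf* against 93.3% ± 2.77 at ZT4 and 67.6% ± 14.9 against 99.6% ± 0.53 at ZT16 (SD, n = 2 each), and it was lower in 4 of 4 *tyf* libraries. Over both times, the difference was -31.1 percentage points (p = 0.056, exact permutation test over 36 arrangements, two-sided, n = 4 each), the smallest p that the design allows. The difference depends on which wild-type libraries are used. Wild type at ZT24 and ZT12, which the study did not set against *tyf*, had shares of 60.2% and 63.9%, within the *tyf* range of 57.0% to 78.1%. With all 6 wild-type libraries, chosen after seeing the data, the difference was -19.6 points (p = 0.11, exact permutation test over 100 arrangements, two-sided). Against ZT24 and ZT12 alone, also chosen after seeing the data, it was 3.33 points (p = 0.78, exact permutation test over 9 arrangements, two-sided).

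At the level of single forms, neither passed in *tyf*. At ZT4, the log2 fold change was -0.73 for the long form (standard error 0.43, adjusted p = 0.53 from edgeR) and 2.14 for the short form (standard error 0.97, adjusted p = 0.45 from edgeR), where 0.183% of transcripts were called. At ZT16, it was -0.50 for the long form (standard error 0.43, adjusted p = 0.64 from edgeR) and 6.26 for the short form (standard error 1.24, unadjusted p = 0.0021, adjusted p = 0.12 from edgeR), where 0.511% were called. DESeq2 called the short form at ZT16 (6.18, adjusted p = 8.8e-07). With wild type pooled over its 3 libraries of day and 3 of night, the short form was at 0.36 (adjusted p = 0.99 from edgeR) at ZT4 and 0.66 (adjusted p = 0.94 from edgeR) at ZT16. The large value at ZT16 is set by the 9.11 and 0.50 counts of wild type at ZT14 and ZT16, so its size is not well defined.

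The test of a form against the rest of its gene passed for the short form at ZT16 (long minus short -6.76, adjusted p = 0.032, diffSpliceDGE of edgeR), where 0.895% of 10722 transcripts were called, but not for the long form (adjusted p = 1, diffSpliceDGE of edgeR). With each library left out, the adjusted p of the short form lay between 0.060 and 0.16, so no such fit passed. At ZT4, the short form did not pass (long minus short -2.87, adjusted p = 0.41, diffSpliceDGE of edgeR). The diffSplice test of limma gave the opposite pair of calls, with an adjusted p of 0.025 at ZT4 and of 0.14 at ZT16. From ZT16 to ZT4 within *tyf*, the long form was at 1.16 (standard error 0.43, unadjusted p = 0.034, adjusted p = 0.77 from edgeR) and the short form at 1.33 (standard error 0.95, adjusted p = 0.84 from edgeR), where 0.00608% of transcripts were called. The interaction of *tyf* and time was -0.22 for the long form (standard error 0.60, adjusted p = 1 from edgeR) and -4.12 for the short form (unadjusted p = 0.030, adjusted p = 0.93 from edgeR), where 0.0243% were called.

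The summed levels of glial and of hemocyte markers were higher in the *tyf* libraries than in wild type. The summed level of the glial list (*repo*, *Gs2*, *moody*, *nrv2* and *alrm*) ran from 108 to 279 TPM in *tyf*, from 11.8 to 41.1 in wild type and from 10.9 to 29.0 in *Atx2* RNAi, and 2 of the 5 genes, *repo* and *Gs2*, were higher in every *tyf* library than in any wild-type library. The hemocyte list (*Hml*, *NimC1*, *Col4a1* and *vkg*) had 3.42 to 5.12 TPM in *tyf* and 0.648 to 2.88 in wild type, with 2 of the 4 genes, *Col4a1* and *vkg*, higher throughout. *ChAT*, of 5 markers of other neurons, and *fkh*, of 3 salivary gland markers, were lower in every *tyf* library than in any of wild type, and the summed levels of these lists overlapped. None of the genes of these 4 lists was at 0 in all libraries of a genotype. How many of all genes were likewise without overlap between these libraries was not counted. The part of these markers in the *CrebA* values of *tyf* was not tested.

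**Figure D5:**
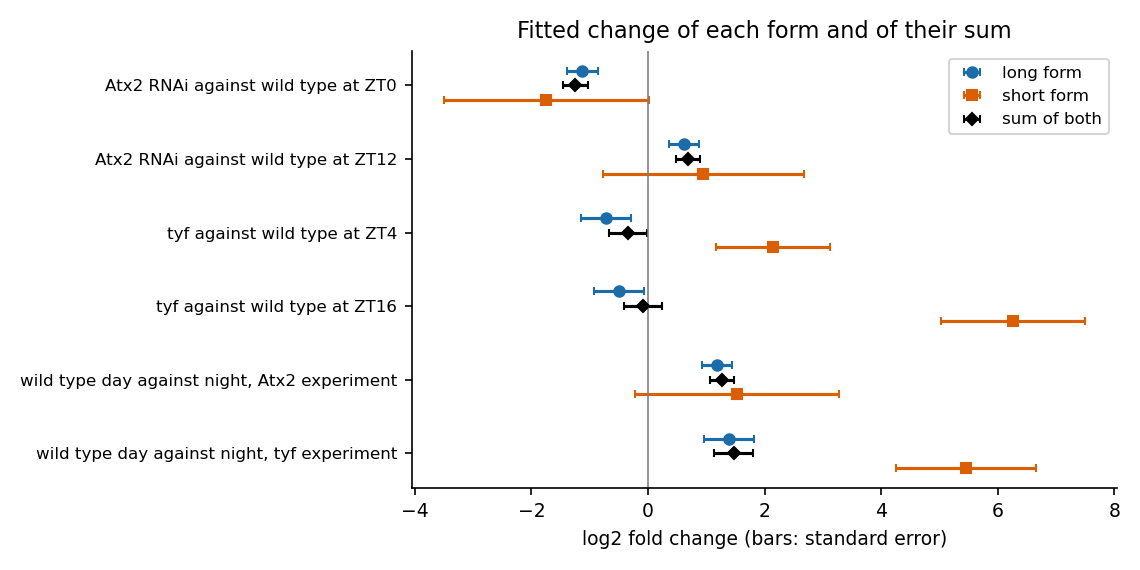
Log2 fold changes (x axis) with standard errors from edgeR for the long form (circles), the short form (squares) and the sum of both (diamonds) in 6 contrasts. The short form has the widest bars in each contrast, and in *tyf* at ZT16 it stands at 6.26 while the sum is at -0.08.

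A fit of the 14 libraries, with each wild-type library as its own group, compared the effects of the genotypes on each form. The *Atx2* RNAi effect at ZT0 minus the *tyf* effect at ZT4 was -0.35 for the long form (standard error 0.47, adjusted p = 1 from edgeR) and -3.50 for the short form (standard error 1.07, unadjusted p = 0.016, adjusted p = 0.41 from edgeR), where 0.108% of transcripts were called. The *Atx2* RNAi effect at ZT12 minus the *tyf* effect at ZT16 was 1.03 for the long form (standard error 0.47, adjusted p = 0.55 from edgeR) and -4.19 for the short form (standard error 1.22, unadjusted p = 0.013, adjusted p = 0.33 from edgeR), where 0.172% were called. DESeq2 called the short form in both, at -3.60 (adjusted p = 0.016) and -4.27 (adjusted p = 0.015). The shared libraries of ZT2 and ZT14 cancel here, so in wild type these differences set ZT24 against ZT4 and ZT12 against ZT16.

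To place the *CrebA* shares, 377 other genes were taken that have exactly 2 quantified transcripts with the same introns and stop codon, with 3′ ends at least 200 bases apart and a mean of at least 50 counts. Their mean share of the longer form lay between 76.5% and 82.8% in the 14 libraries. Wild type at ZT24, where *CrebA* had its lowest wild-type share, also had the lowest mean of the 6 wild-type libraries, 77.8% against 79.9% to 82.8% in the others. Wild type at ZT12, with the next lowest *CrebA* share, had a mean of 81.3%, within that range. *Atx2* RNAi had means of 78.6% and 76.5% at ZT0 and 76.5% and 77.2% at ZT12, all below each wild-type library other than ZT24. The *tyf* means were 79.6% to 80.6%. The part of such a difference between libraries in the *CrebA* share was not tested. In each library, 63.7% to 71.9% of these genes had at most 0.1% of the shorter form, so most of them had little room to move, which bears on the percentages that follow. The range of *CrebA* over the libraries, 42.9 points, was exceeded by 101 of the 377 genes (26.8%). In *tyf*, the *CrebA* differences of -30.2 points by day and -32.0 by night were exceeded in size by 8.75% and 7.16% of the genes. The differences in *Atx2* RNAi were exceeded by 28.5% and 27.6%, and the replicate difference at ZT0 by 7.45%.

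Transcripts of other genes that followed each form most closely were ranked by Pearson r of log2 CPM over the 14 libraries, among 6848 transcripts with a mean of at least 10 CPM. For the long form they were *nebu*-RA (r = 0.905), *eIF4G1*-RB (r = 0.895), of a translation initiation factor gene, *CG15651*-RA (r = 0.869), *twit*-RA (r = 0.843) and *meng*-RB (r = 0.835). Like the long form, 4 of these 5 were highest in wild type at ZT2, and *twit*-RA was highest at ZT4. For the short form they were *CG42238*-RA (r = 0.954), *dpr5*-RB (r = 0.916), *ash1*-RB (r = 0.885) and *pre-mod(mdg4)-AD*-RA (r = 0.862). Their lowest values, from 0 to 4.55 CPM, lay in wild type at ZT16 for *CG42238*-RA, *dpr5*-RB and *ash1*-RB and in wild type at ZT14 for *pre-mod(mdg4)-AD*-RA, the libraries in which the short form of *CrebA* was lowest. These values describe libraries that share genotype and amplification.

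Genes of the early secretory pathway, for which CrebA is known as an activator, were counted at the level of the gene. For wild type by day against night, where the *CrebA* sum passed, edgeR called 0 of the 43 in each experiment. There, 1.62% of all genes were called in the *Atx2* experiment and 2.36% in the *tyf* experiment. The list had medians of 0.17 and 0.30 on the log2 scale, with 37 genes higher and 6 lower in the first and 34 and 9 in the second. Of 43 such genes, all tested, edgeR called 10 lower at ZT0 in *Atx2* RNAi, where 3.64% of all genes were called lower, and 0 higher (2 at an unadjusted p under 0.05, 1 by DESeq2). Their median log2 fold change was -0.30, against -0.01 over all genes. Among the 10 were *Sec31*, for a coat protein of vesicles that leave the endoplasmic reticulum (-1.61, adjusted p = 0.0018 from edgeR), *gammaCOP*, for a subunit of the coat of the return route (-1.23, adjusted p = 0.0055 from edgeR), and *TRAM*, for a protein at the translocation channel (-1.17, adjusted p = 0.0082 from edgeR). At ZT12, 8 were called higher, where 3.24% of all genes were called higher, and 0 lower (1 at an unadjusted p under 0.05, 1 by DESeq2), with a median of 0.40 against -0.01. Among these were *Tapdelta* (1.29, adjusted p = 0.0081 from edgeR), *twr*, for a signal peptidase subunit (1.27, adjusted p = 0.013 from edgeR), and *Pdi*, for a protein disulfide isomerase (0.93, adjusted p = 0.022 from edgeR). *TRAM* was called at both times, and all of these genes were named after their values were seen.

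These counts moved with single libraries left out, and the share of all genes called in such fits was not counted. At ZT0, the median log2 fold change of the list was -0.33 without *Atx2* RNAi replicate 1 and -0.31 without replicate 2. It was -0.19 without wild type at ZT2 and -0.42 without ZT24. At ZT12, the median was 0.42 without *Atx2* RNAi replicate 1, 0.48 without replicate 2, 0.54 without wild type at ZT12 and 0.34 without ZT14. The salivary gland markers *Sgs3*, *fkh* and *sage* summed to 9.05 to 20.1 TPM in *Atx2* RNAi and 27.0 to 40.5 in wild type, without overlap, with *fkh* alone lower throughout. Of the 5 markers of other neurons, *ChAT* was, as in *tyf*, lower in every *Atx2* RNAi library than in any of wild type, as was *ninaE* of 4 photoreceptor markers, while *apolpp* of 4 fat body markers was higher, and the summed levels of these 3 lists overlapped. Here too, the share of all genes without overlap was not counted. The part of these markers in the counts and in the *CrebA* values of *Atx2* RNAi was not tested. In *tyf*, edgeR called 0 of the 43 genes at ZT4 (6 at an unadjusted p under 0.05, 1 by DESeq2), where 4.3% of genes were called, and 2 at ZT16, where 6.21% were. The 2 were *Sec61alpha*, for the channel itself (-1.13, adjusted p = 0.022 from edgeR), and *twr* (0.87, adjusted p = 0.042 from edgeR), and both lost the call when any 1 of the 4 libraries of this comparison was left out.

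Of 14 other basic leucine zipper factors, 4 were called at ZT0 in *Atx2* RNAi, where 7.32% of all genes were called. *vri* (4.20, adjusted p = 0.00012 from edgeR) and *Pdp1* (1.74, adjusted p = 0.0028 from edgeR), which belong to the clock, were higher. *Atf3* (-1.72, adjusted p = 0.0075 from edgeR) and *CrebB* (-1.40, adjusted p = 0.020 from edgeR), for the CREB factor best known from fly memory, were lower. These 4 were named after their values were seen, and the number called changed when single libraries were left out. The median of the list was 0.14.

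As checks on the libraries, *Atx2* had 19.7 to 44.2 normalized CPM in the 4 *Atx2* RNAi libraries and 117 to 225 in the other 10, and *tyf* had 33.8 to 64.9 in the 4 *tyf* libraries and 191 to 923 in the others. The lowest *tyf* values outside the mutant, 191 and 227, were those of *Atx2* RNAi at ZT0. The libraries held between 5216112 and 23507263 estimated counts. The LNv markers *Pdf*, *tim*, *vri*, *Clk*, *per* and *Pdp1* summed to between 193384 and 348325 TPM, nearly all of it *Pdf*, and none of the 6 was at 0 throughout a genotype.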

How the data were processed

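RNA of sorted LNvs was measured in 14 libraries. Per transcript, the authors deposited the output of kallisto run on FlyBase transcripts, namely an estimated count (not normalized), a TPM value and an effective length. Estimated counts were rounded and tested per transcript with edgeR 4.0.16 (R 4.3.3; quasi-likelihood F-test, TMM, filterByExpr, Benjamini-Hochberg over all tested transcripts, threshold 0.05), with the 8 libraries of each experiment as 4 groups of 2. Gene sums were tested in the same way. A form was set against the rest of its gene with diffSpliceDGE, whose tests of the 2 forms differ, and both are given. Shares were computed from the TPM values deposited by the authors and tested by exact permutation over samples.

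The alternatives were DESeq2 1.42.0, its size factors in edgeR, scaling by library size alone, no filter, a minimum of 10 counts per library, a fit of the 4 libraries compared, all 14 libraries with wild type pooled, diffSplice of limma 3.58.1, a replicate block, the share of estimated counts, the log2 ratio of TPM, a mean of at least 200 counts for the other genes, and leaving out each library. Leaving out 1 library left 1 in its group, which is then assumed to vary like the others.

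The 2 forms, the gene lists and the markers were chosen with earlier results of these data known. Genes were named by rule (both forms, *Atx2*, *tyf* and the 5 transcripts most like each form, of which 1 is not reported here), and list members after their values were seen. Coordinates come from BDGP6.54, whose transcript lengths equal the deposited ones for 99.7% of 30191 matched transcripts. The 247 unmatched transcripts, with 0.234% of counts, were left out of gene sums. The labels do not say whether replicates came from separate animals, so p-values measure only the spread between these libraries. The planned motif search in the 3′UTR was not run, and no sequence was used here. The edgeR tests of transcripts were checked on simulated counts for the contrast of *Atx2* RNAi at ZT0. The simulation did not cover the split of reads between nested forms or the permutation tests. Python 3.11.15, pandas 2.3.3, numpy 2.4.6, scipy 1.17.1 and matplotlib 3.10.9 were used.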

Additional observations from a re-analysis of the deposited data

Results flagged for a closer look

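In these libraries, the long form of *CrebA* was lower than wild type in *Atx2* RNAi at ZT0 and higher at ZT12. The change at ZT12 passed the threshold in no fit. Its size depended on the scale, with the RNAi mean 1.48-fold higher in normalized CPM and 1.19-fold higher in TPM. How many of all transcripts showed such opposite non-overlap was not counted. With RNAi, each of 2 libraries was under each of 2 wild-type libraries at ZT0 and over each of 2 at ZT12, and the difference of the effects was -1.74 on the log2 scale (standard error 0.37). It was tested by the interaction term, with an adjusted p of 0.39 from edgeR and 0.0014 from DESeq2 (-1.77). For the sum of both forms, the same difference was -1.94 (standard error 0.29, adjusted p = 0.019 from edgeR).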

How the results depend on the processing

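The fold change of the long form kept its sign under all 12 alternatives at ZT0 (-1.51 to -0.82) and at ZT12 (0.53 to 0.80) in *Atx2* RNAi. DESeq2 called what edgeR did not: the long form at ZT0 (-1.14), in wild type by time (1.20) and in the *Atx2* interaction (-1.77), the short form in *tyf* at ZT16 (6.18) and in wild type of the *tyf* experiment (5.40), and the short form in the *Atx2* RNAi minus *tyf* effect at ZT0 (-3.60) and ZT12 (-4.27). It called 1138 transcripts at ZT0 against 32, 1210 at ZT12 against 21, 1292 in *tyf* at ZT4 against 30 and 1498 at ZT16 against 84. Without a filter, the short form in *tyf* at ZT16 passed (6.24, adjusted p = 0.049 from edgeR). The long minus short difference there did not pass with only 4 libraries (-6.72), limma (-7.61) or wild type pooled (-1.23), and limma passed at ZT4 (-3.26). The *tyf* share difference changed sign against wild type at ZT24 and ZT12 alone (3.33), an alternative chosen after seeing the data, and the cause of these changes was not tested. For the sum of both forms, the *Atx2* interaction had an adjusted p of 0.054 with library size only and wild type by time in the *Atx2* experiment 0.068 with only 4 libraries (both edgeR), while DESeq2 called *Atx2* RNAi at ZT12 (0.69, adjusted p = 0.023). With at least 10 counts in every library, the short form was not tested and gave no value.

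The secretory genes called lower at ZT0 (10) were 4 with library size only and 6 with only 4 libraries, those called higher at ZT12 (8) were 4 with library size only, those called in *tyf* at ZT4 (0) were 1 with library size only, no filter and DESeq2, and those at ZT16 (2) were 8 with library size only. The share of all genes called was not counted under any alternative, so these counts cannot be set against it. With a minimum of 200 counts, 5.51% of the other genes exceeded *CrebA* in *tyf* by day and the same percentage between the *tyf* replicates of ZT16.

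Replicate numbers are shared by the labels of *Atx2* RNAi and *tyf* libraries, but deviations of same-numbered libraries correlated at 0.0468 and 0.0285 over 2 pairs, so the numbers were not taken as pairs. The titles of wild type carry no replicate number, and the replicate block coded every wild-type library with replicate 1 of the mutants. It therefore shifts contrasts of a mutant against wild type. The sum of both forms in *tyf* at ZT4 moved from -0.34 to -0.61 with it. With the replicate block, long minus short at ZT12 in *Atx2* RNAi was 0.32, that in *tyf* at ZT16 -7.25 (adjusted p = 0.063 from edgeR), and the secretory counts were 5 at ZT0, 2 at ZT12 and 1 in *tyf* at ZT16. No transcript was called at ZT0 or ZT12 with the block (0 by edgeR, against 32 and 21 without it), with 1581 and 1588 at an unadjusted p under 0.05. The sum interaction lost its call with the block, at an adjusted p of 0.0504 (edgeR).

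With each library left out, the short form ran from -3.81 to 0.0020 at ZT0, from -0.049 to 5.99 at ZT12 and from -0.22 to 6.58 for wild type by time in the *Atx2* experiment. Long minus short ran from -1.26 to 2.99 at ZT0, -5.46 to 0.71 at ZT12, -5.47 to 1.54 for wild type, -0.59 to 2.98 for *Atx2* RNAi by time, -0.93 to 6.08 for its interaction, -9.29 to -5.95 for *tyf* at ZT16 and -0.97 to 0.46 for *tyf* by time. The long form ran from -0.86 to 0.20 in the *tyf* interaction. The share ran from -6.13 to 3.86 points by time and from -9.91 to 7.75 for *Atx2* RNAi. The sum of both forms ran from -0.85 to 0.027 in *tyf* at ZT4, -0.44 to 0.39 at ZT16 and -0.76 to 0.11 in the interaction. The list counts ran from 1 to 12 at ZT0, 0 to 3 at ZT12, 0 to 1 and 0 to 0 in *tyf* at ZT4 and ZT16, and 2 to 5 for leucine zipper factors at ZT0.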
